A study of Homo sapiens with 3 samples.

Results

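Fibronectin (FN1), tenascin-C (TNC), versican (VCAN), periostin (POSTN), fibulin-2 (FBLN2) and extracellular matrix protein 1 (ECM1) are secreted glycoproteins and proteoglycans of the extracellular matrix whose transcripts have alternative exons. They were taken by gene symbol from 2 deposited tables of exon-skipping events, and all 6 genes were listed in both tables. Of the 40702 events listed for RS2 they had 73, and of the 42518 listed for RS3 they had 77. Over both tables this was 59 of 39434 exons, of which 43 were listed in both. The exons fell to FN1 (24), TNC (13), FBLN2 (9), VCAN (5), ECM1 (5) and POSTN (3).

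The samples were BJ cells, an established line of human foreskin fibroblasts, taken on day 8 after induced viral expression of OCT4, SOX2, KLF4 and MYC (OSKM), which reprogram cells to pluripotency. Of the 3 samples, 1 had non-targeting siRNA (genotype WT in the labels), 1 had siRNA against SMAD3 and 1 had siRNA against SFRS11, now SRSF11, and all 3 carried the OSKM factors. The labels give 1 sample per group, so no difference here has a replicate check, and a condition cannot be told apart from its library. The tables compare libraries coded RS2 and RS3 with a shared library, here the comparator, and no label ties these codes to a siRNA.

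A fibroblast's matrix is built on fibronectin fibrils, which cells assemble through integrins. Fibronectin and tenascin-C are chains of repeated modules, and whole modules are added or left out when the exon that encodes them is kept or skipped. The extra domains A and B of fibronectin and the alternative repeats of tenascin-C are known for their presence in embryonic, healing and tumour tissue. TGF-beta, whose signal SMAD3 carries, is a known inducer of fibronectin and tenascin-C and of extra domain A inclusion, and SR proteins are known to act on the extra domain A exon.

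Inclusion level is the share of transcripts over a region that keep the exon, and the value for each event is the inclusion difference, RS2 or RS3 minus the comparator, which can run from -1 to 1. An event was called when it had a deposited false discovery rate (FDR) under 0.05 and differed by 0.1 or more in either direction. The FDR compares 2 libraries and not 2 conditions. The read depth behind each event was not used here, and more deeply read events reach a small FDR at smaller differences. An exon can stand in several rows, and the columns used here do not tell these rows apart.

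The printed exons are those that carry the results: the 3 alternative regions of FN1, the called exon of TNC, and the exons with the largest differences in POSTN and FBLN2. They are given 5′ to 3′ in the RNA sense as DNA letters from GENCODE release 29 transcripts (GRCh38), in which all 59 listed exons were found by their length and their spacing within the gene. Capitals mark GAAGAAGA, a purine-rich splicing enhancer motif, in the extra domain A exon. In the variable region exon they mark the first 75 bases, which a shorter listed form lacks, and the remaining exons have no capitals.
FN1 extra domain B exon (exon 25 of 46 in transcript FN1-203): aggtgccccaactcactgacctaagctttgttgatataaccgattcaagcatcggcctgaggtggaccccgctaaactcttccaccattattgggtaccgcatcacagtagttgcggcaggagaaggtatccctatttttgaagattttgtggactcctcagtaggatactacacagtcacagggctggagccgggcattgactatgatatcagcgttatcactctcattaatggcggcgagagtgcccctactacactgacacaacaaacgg
FN1 extra domain A exon (exon 33 of FN1-203): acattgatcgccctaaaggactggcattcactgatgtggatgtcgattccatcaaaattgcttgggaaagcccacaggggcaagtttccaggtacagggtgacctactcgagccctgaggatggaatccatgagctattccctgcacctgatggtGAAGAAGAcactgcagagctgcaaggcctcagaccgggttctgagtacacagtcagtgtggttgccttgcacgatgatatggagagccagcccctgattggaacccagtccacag
FN1 variable region exon (exon 40 of 47 in FN1-201): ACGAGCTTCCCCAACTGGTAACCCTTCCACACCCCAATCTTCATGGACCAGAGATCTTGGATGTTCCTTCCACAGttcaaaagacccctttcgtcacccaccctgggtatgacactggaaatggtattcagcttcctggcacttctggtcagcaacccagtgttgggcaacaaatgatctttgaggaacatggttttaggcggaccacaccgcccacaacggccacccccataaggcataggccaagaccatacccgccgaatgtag
TNC exon 16 (of 28 in TNC-202): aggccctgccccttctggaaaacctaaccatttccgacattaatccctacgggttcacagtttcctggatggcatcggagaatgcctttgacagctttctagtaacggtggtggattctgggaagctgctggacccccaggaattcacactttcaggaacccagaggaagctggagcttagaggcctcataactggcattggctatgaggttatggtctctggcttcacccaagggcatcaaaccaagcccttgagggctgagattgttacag
POSTN exon 18 (of 23 in POSTN-203): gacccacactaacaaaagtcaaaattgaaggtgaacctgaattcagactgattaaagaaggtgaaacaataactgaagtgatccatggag
FBLN2 exon 9 (of 18 in FBLN2-203): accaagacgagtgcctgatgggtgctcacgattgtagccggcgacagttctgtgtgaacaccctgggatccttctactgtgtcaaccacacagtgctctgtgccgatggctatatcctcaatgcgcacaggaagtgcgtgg

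All 6 printed exons keep the reading frame, since their lengths of 273, 270, 267, 273, 90 and 141 bases are multiples of 3. They encode 91, 90, 89, 91, 30 and 47 codons. The extra domain B exon was part of 3 of the 13 annotated coding FN1 transcripts, and the extra domain A exon of 5. TNC exon 16 was part of 1 of 9 coding TNC transcripts. GAAGAAGA began at base 156 of the extra domain A exon, and no other printed exon held it or its reverse complement. Of 1996 annotated coding exons of 260 to 280 bases, 2.91% held the motif and 1.15% its reverse complement.

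Frame-keeping exons made up much of what was listed for these genes. Among the exons of these genes, 39 of 49 listed for RS2 (79.6%) and 44 of 53 listed for RS3 (83.0%) had lengths that are multiples of 3, against 41.3% and 41.4% of all listed exons. By the GENCODE match 54 of the 59 were wholly coding, 2 partly coding and 3 not coding. The genes were chosen for known alternative domains, and the coding status of the other listed exons was not looked up. The shares of frame-keeping exons are thus not a comparison of like with like. More than 1 row was listed for 16 of 49 member exons (32.7%) in RS2 and 15 of 53 (28.3%) in RS3, against 15.9% and 16.4% of all exons.

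Most member exons differed little from the comparator, and the calls fell on few of them. FN1 and TNC had 1 called event each in RS2, and FN1 had 1 in RS3. The share of all events called was 0.0712% in RS2 and 0.967% in RS3, and the share of genes with such an event was 0.238% and 3.05%. In the authors' deposited table the difference was within 0.01 of 0 for 47 of 73 member events (64.4%) in RS2 and 51 of 77 (66.2%) in RS3, where all events gave 39.5% and 37.5%. Absolute differences of at least 0.1, called or not, were listed in the authors' deposited table for 5 member events (6.85%) in RS2 and 3 (3.90%) in RS3, against 19.2% and 21.2% of all events. Over all genes these were 7834 events in RS2 and 8996 in RS3, of which 29 and 411 were called. Since read depth was not used, whether the members differ from other events of like depth was not tested. The median difference over the members was 0 in each table, and over all events it was 0 in RS2 and -0.001 in RS3.

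**Figure D1:**
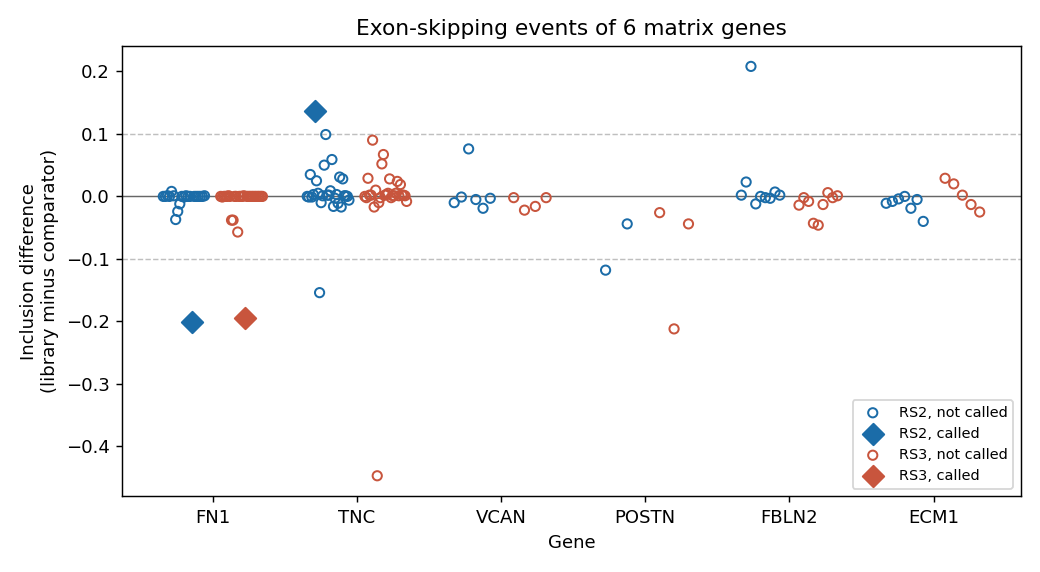
Inclusion difference (vertical axis, library minus comparator, no unit) of every listed event of the 6 genes, RS2 in blue and RS3 in red, with called events as filled diamonds and lines at 0 and at 0.1 on either side. The 3 called events are in FN1 (-0.201 and -0.194) and TNC (0.136), and the lowest point, a TNC event at -0.447 in RS3, was not called.

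FN1 encodes fibronectin, the glycoprotein that binds integrins, collagen and heparin. Its called exon, the extra domain B exon on the minus strand of chromosome 2 (216257654 to 216257926 in hg19), encodes a whole fibronectin type III repeat. Its inclusion fell by 0.201 in RS2 and fell by 0.194 in RS3, each with an FDR listed as 0 in the authors' deposited table. The exon had a single row in each table, so no choice between rows enters these values. Both comparisons use the same comparator library, so the nearness of the values is not independent support.

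The extra domain A exon (216245534 to 216245803), which encodes another type III repeat, was listed in 2 rows in each table. Its row with the smaller p-value was -0.012 in RS2 (FDR 0.355) and -0.057 in RS3 (FDR listed as 0), per the authors' deposited table, and the other row was 0 in both. The RS3 row passed the FDR but stayed under the minimum difference, so it was not called. Whether RS2 and RS3 differ at this exon was not tested.

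The variable region, also called IIICS, carries a binding site for integrin alpha-4 beta-1 and is spliced with alternative ends. The exon of 267 bases (216236832 to 216237098) differed by -0.024 in RS2 (FDR 3.62e-12) and by -0.038 in RS3 (FDR listed as 0), per the authors' deposited table. The nested exon of 192 bases (216236832 to 216237023) differed by -0.037 in RS2 and -0.038 in RS3, both with an FDR listed as 0 in the authors' deposited table. These are small, passed the FDR and were not called. The nested exons share bases and are not independent. A form of 467 bases that runs on into the next exon differed by 0.001 in RS2 and 0 in RS3, per the authors' deposited table. That next exon (216236632 to 216236738, 107 bases) was at 0.008 in RS2 and 0.001 in RS3, per the authors' deposited table.

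The other FN1 exons were close to the comparator. Of its events, 17 of 21 in RS2 and 24 of 28 in RS3 lay within 0.01 of 0 in the authors' deposited table. An FDR under 0.05 at any difference was listed for 3 FN1 events in RS2 and 4 in RS3, all with lower inclusion. Over all genes 0.165% of RS2 events and 1.64% of RS3 events had such an FDR, 0.101% and 1.19% with lower inclusion. The 3 alternative regions thus held every FN1 event past the FDR in these tables, and the extra domain B exon was the only called one.

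**Figure D2:**
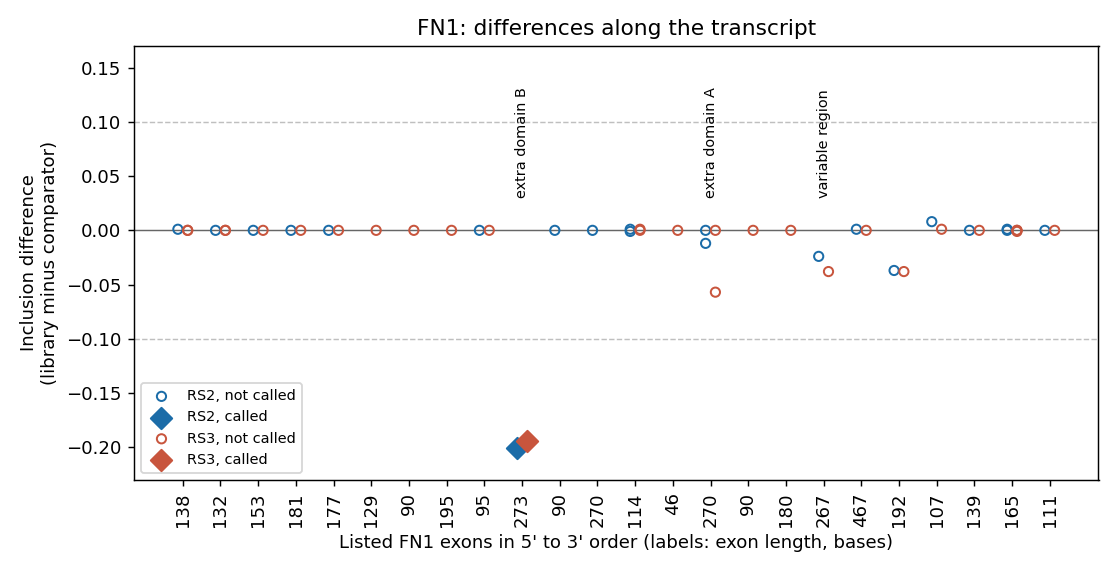
Inclusion difference (vertical axis, library minus comparator, no unit) of the listed FN1 exons from 5' to 3' (horizontal axis, labelled with exon length in bases; the 467 base form overlaps the 267, 192 and 107 base forms, and the 192 base form lies within the 267 base one), RS2 in blue and RS3 in red, called events as filled diamonds. The extra domain B exon sits near -0.2 in both libraries, the extra domain A exon and the 267, 192 and 467 base forms of the variable region lie between -0.057 and 0.001, and the remaining exons lie between -0.001 and 0.008.

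TNC encodes tenascin-C, a six-armed glycoprotein that modulates cell adhesion to fibronectin. Its alternative part is a block of type III repeats, each encoded by 1 exon, and 8 exons of this block were listed in each table. They are exons 11 to 17 of transcript TNC-202, of 273 bases each, which correspond in the usual naming to repeats A1, A2, A3, A4, B, C and D. An exon of 276 bases between exons 15 and 16, absent from TNC-202, corresponds to repeat AD1. The called event was at exon 16 (chromosome 9, minus strand, 117810539 to 117810811 in hg19), where inclusion rose by 0.136 in RS2 (FDR 0.00654) in the authors' deposited table.

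That exon was listed in 3 rows in each table. The other RS2 rows were 0.025 and 0.005, each with an FDR of 1 in the authors' deposited table. The RS3 rows were 0.090 (FDR 0.504), 0.010 (FDR 1) and -0.017 (FDR 0.97) in the authors' deposited table. The called gain in RS2 was thus listed in 1 of 3 rows. The rows were not matched between the tables, since the columns used here do not tell them apart.

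RS2 events of 2 other exons of the block passed the FDR with smaller gains. Exon 15 (117819432 to 117819704) had a row of 0.050 (FDR 0.0204) and exon 11 (117826926 to 117827198) a row of 0.028 (FDR 0.0108) in the authors' deposited table for RS2. The rows with the smallest p-value at these exons in RS3 were 0.052 (FDR 0.337) and 0.019 (FDR 0.391) in the authors' deposited table. TNC thus had 3 RS2 events with an FDR under 0.05, all with higher inclusion, and 0 in RS3. At an unadjusted p under 0.05 in the authors' deposited table there were 5 of 28 TNC events in RS2 and 3 of 28 in RS3, where 4.52% and 7.61% of all events had such a p. Events of all genes with such an FDR and higher inclusion made up 0.0639% in RS2 and 0.456% in RS3.

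Over the block, 16 of 23 RS2 rows and 18 of 23 RS3 rows were positive in the authors' deposited table, with medians of 0.003 and 0.002. Over all events 20288 of 40702 in RS2 and 19235 of 42518 in RS3 were positive. Rows of 1 exon share reads, so the counts of the block are not independent. Outside the block, the 5 remaining TNC exons ranged from -0.006 to 0.001 for RS2 and from -0.008 to 0.002 for RS3, per the authors' deposited table. The AD1 exon (117815019 to 117815294) went the other way in its row with the smallest p-value, at -0.154 in RS2 (FDR 1) and -0.447 in RS3 (FDR 0.917), per the authors' deposited table. Its other rows were -0.010 and 0.001 in RS2 and -0.010 and -0.002 in RS3 in the authors' deposited table, and none was called.

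Some exons of the block are alike in sequence, which can bear on how reads are assigned to them. Over the 28 pairs of the 8 exons, the identity of the GENCODE sequences in a global alignment ran from 48.8% to 88.6% with a median of 53.1%. The 6 pairs among exons 11 to 14 had 67.8% to 88.6% identity, and the other 22 pairs had 48.8% to 57.6%, where the extra domain B and A exons of FN1 had 51.4%. Exons 11 and 14 (A1 and A4) were the most alike of the block at 88.6%. Whether any reads were split between them was not tested. Exon 16, printed above, had between 50.4% and 55.7% identity with the rest of the block.

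**Figure D3:**
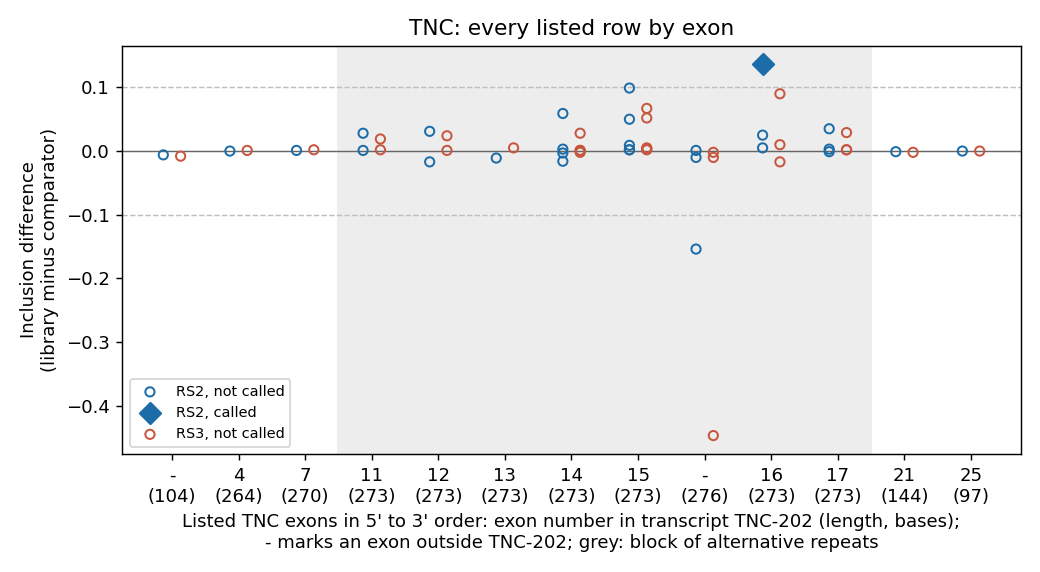
Inclusion difference (vertical axis, library minus comparator, no unit) of every listed TNC row by exon from 5' to 3' (horizontal axis), RS2 in blue and RS3 in red, with the called event as a filled diamond and the block of alternative repeats shaded. Exons outside the shaded block lie between -0.008 and 0.002, exon 16 holds the called RS2 row at 0.136, and the AD1 exon holds the uncalled rows at -0.154 and -0.447.

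VCAN encodes versican, a large proteoglycan that binds hyaluronan and whose chondroitin sulfate chains sit on domains encoded by 2 very long exons. Exon 7 (chromosome 5, plus strand, 82815168 to 82818128, 2961 bases), the GAG-alpha exon, was listed at 0.076 and -0.005 in RS2 and at -0.022 and -0.016 in RS3, per the authors' deposited table. Exon 8 (82832826 to 82838087, 5262 bases), the GAG-beta exon, was listed at -0.019 and -0.003 in RS2 and at -0.002 in RS3, per the authors' deposited table. The RS2 rows of exon 7 lay on both sides of 0 and the other rows were slightly below it. The smallest FDR of a VCAN event was 0.924, so 0 of its 6 RS2 and 4 RS3 events were called.

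POSTN encodes periostin, a matrix protein induced by TGF-beta that binds fibronectin and tenascin-C, and its C-terminal exons are spliced in many combinations. Exon 18 (chromosome 13, minus strand, 38145506 to 38145595, 90 bases) was at -0.118 in RS2 (FDR 1) and -0.212 in RS3 (FDR 0.145), per the authors' deposited table. Exon 17 (38148709 to 38148789, 81 bases) was at -0.044 in both tables with an FDR of 1, and exon 19 (38144717 to 38144806), listed in RS3 alone, was at -0.026 (FDR 1) in the authors' deposited table. All 5 POSTN values were below 0 and none was called. The RS3 difference at exon 18 was larger in size than that of the called FN1 exon, with an FDR that missed the threshold.

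FBLN2 encodes fibulin-2, which binds fibronectin and elastic fibre proteins through a row of EGF-like modules. Its exon 9 (chromosome 3, plus strand, 13663275 to 13663415, 141 bases) encodes a module whose skipping is a known variant. This exon was at 0.208 (FDR 0.166) and 0.023 (FDR 0.119) in RS2 and at -0.043 (FDR 1) and -0.008 (FDR 0.831) in RS3, per the authors' deposited table. Both rows were above 0 in RS2 and below 0 in RS3, and none was called. Exon 10 (13667945 to 13668079, 135 bases) had an RS3 row of -0.046 that passed the FDR (0.0313) without reaching the minimum difference, and another of -0.013 (FDR 0.874) in the authors' deposited table. Its RS2 rows were -0.012 and 0, each with an FDR of 1 in the authors' deposited table.

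ECM1 encodes a glycoprotein of skin and vessel matrix, and the skipping of its exon 7 gives the known variant ECM1b. Exon 7 (chromosome 1, plus strand, 150483933 to 150484307, 375 bases) was at -0.040 in RS2 (FDR 0.207) and -0.025 in RS3 (FDR 0.606), per the authors' deposited table. The other ECM1 events ranged from -0.019 to 0 for RS2 and from -0.013 to 0.029 for RS3, per the authors' deposited table, and 0 of 7 and 0 of 5 ECM1 events were called. ECM1 and VCAN were the member genes without a difference of 0.1 in either table.

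**Figure D4:**
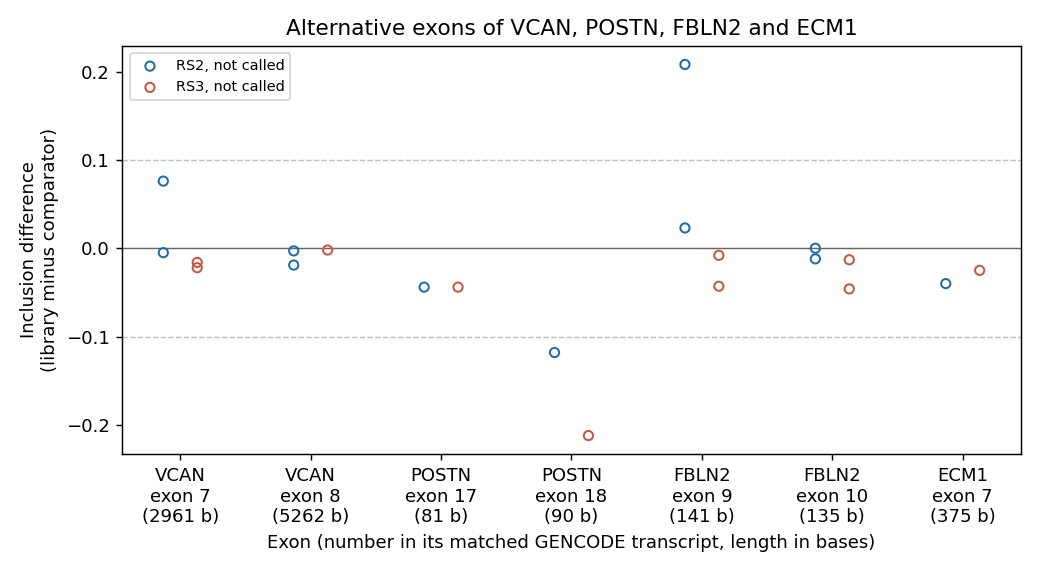
Inclusion difference (vertical axis, library minus comparator, no unit) of every listed row of 7 exons of VCAN, POSTN, FBLN2 and ECM1 (horizontal axis), RS2 in blue and RS3 in red, none of them called. POSTN exon 18 lies at -0.118 and -0.212, FBLN2 exon 9 lies above 0 in RS2 and below 0 in RS3, and the points of the remaining exons lie between -0.046 and 0.076.

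Related genes were counted from 5 lists. Those of the matrix were further adhesive glycoproteins, elastic fibre and fibulin genes, and proteoglycans and hyaluronan partners. The others were receptors of fibronectin and tenascin-C with their cytoplasmic linkers, and splicing factors known to act on fibronectin, tenascin or other alternative exons. In RS2, 0 of 103 listed genes had a called event, and in RS3 8 of 101 (7.92%) did, all with lower inclusion. Over all genes the shares were 0.238% in RS2 and 3.05% in RS3, and 0.143% and 2.32% of genes had a called event of lower inclusion. The lists were chosen with earlier results of these data known, so the shares describe them and are no test of an excess. Most called RS3 events of all genes were lower (313 of 411, with 98 higher). The called list genes were 2 of 28 adhesive glycoproteins, 3 of 18 receptors and linkers and 3 of 25 splicing factors. None of the 19 elastic fibre genes and 11 proteoglycan genes in RS3 was called. Most of the called list genes were thus receptors, linkers or splicing factors and not genes of the matrix lists. The gene shares take no account of how many events each gene had. By RS3 event, 4 of 179 were called among adhesive glycoproteins, 3 of 159 among receptors and linkers and 3 of 129 among splicing factors. The elastic fibre and proteoglycan lists had 0 of 162 and 0 of 79, and over all RS3 events 0.967% were called. The median difference of each list lay between -0.001 and 0.001 in both tables.

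In the adhesive group, the authors' deposited table for RS3 listed losses in ABI3BP, a fibronectin type III protein with 3 called events (the largest -0.177, FDR 0.00539), and NID2 (-0.119, FDR 4.36e-11), a nidogen of basement membranes. Among receptors and linkers they were ITGB5 (-0.270, FDR 0.0146), an integrin beta chain, TLR4 (-0.267, FDR 0.0165), an innate immune receptor to which extra domain A and tenascin-C can bind, and TLN2 (-0.250, FDR 1.76e-09), a talin that links integrins to actin, in the authors' deposited table. The ITGB5 exon was called in 1 of its 4 RS3 rows, and the other rows were -0.240 (FDR 0.344), -0.216 (FDR 0.628) and -0.009 (FDR 1), per the authors' deposited table. With exons of a single row alone, 7 list genes were called in RS3. Of the splicing factors, the helicase gene DHX9 differed by -0.408 (FDR 0.000571) and the muscleblind genes MBNL2 and MBNL1 by -0.200 (FDR 0.00562) and -0.199 (FDR 9.08e-05), per the authors' deposited table for RS3. SR protein genes of the list, SRSF11 included, had no called event in either table.

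Exons of other genes with a pair of differences nearest to that of the FN1 extra domain B exon were looked up among 406 exons called in at least 1 table and listed in both. By Euclidean distance over the 2 differences these were exons in SUN1 (-0.186 in RS2 and -0.212 in RS3, distance 0.0234), NICN1 (-0.190 and -0.160, distance 0.0357) and MVK (-0.179 and -0.225, distance 0.0380) in the authors' deposited table. This is a description over 2 values that share a comparator.

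The tables measure splicing and not the amount of RNA, so marker genes show only whether a gene was listed. Of 13 fibroblast markers 12 were listed in each table. Of 9 epithelial markers 4 were listed in RS2 and 5 in RS3, and of 9 pluripotency markers 2 and 4. Of 5 muscle markers 2 were listed in each table, and of 4 neural markers 3. Whether the mix of cells differed between the libraries, and whether it moved with the FN1 and TNC values, was not tested.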

How the data were processed

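RNA sequencing of 3 libraries (TruSeq kit after mRNA selection, per the labels' protocols) gave 2 deposited tables of exon-skipping events. FastQC, STAR and the hg19 build are named in the submitters' processing notes, and no source used here names the event caller. The p-value and FDR of each event and the inclusion difference, a signed share on no log scale, are the authors' deposited values. In them 4 columns of inclusion level per library were not used, since no label maps them to a sample. They were consulted once to settle the sign (library minus comparator).

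Nothing was refitted. Events were called at FDR under 0.05 and absolute difference at least 0.1. Because there is 1 library per group, p-values measure only the difference between these libraries. Every called member event and every one with a difference of at least 0.1 is named, the others by example and range, and other genes where called in a list. The members and lists were chosen with earlier results of these data known. Exons were matched to GENCODE release 29 by length and spacing, with no conversion of coordinates. All coordinates are hg19, 1-based, from the tables. Alternatives were an FDR of 0.01, a minimum difference of 0.2, no minimum, exons with a single row, and FDR recomputed by the Benjamini-Hochberg method, which was tested on simulated data. Python 3.11.15, pandas 2.3.3 and matplotlib 3.10.9 were used.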

Additional observations from a re-analysis of the deposited data

Results flagged for a closer look

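FBLN2 exon 9 (13663275 to 13663415 on chromosome 3 in hg19) stood above the comparator in every RS2 row and below it in every RS3 row. The values were 0.208 and 0.023 in RS2 and -0.043 and -0.008 in RS3 in the authors' deposited table. None of the 4 rows passed the FDR, and whether RS2 differs from RS3 here was not tested.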

How the results depend on the processing

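Raising the minimum difference to 0.2 left 1 called member event in 1 gene in RS2 and 0 in RS3, and 5 list genes in RS3. With no minimum, 6 member events in RS2 and 5 in RS3 passed, in 2 genes in each table, with 1 list gene in RS2 and 17 in RS3. Restricting the tables to exons with a single row left 1 member event in 1 gene in RS2, the FN1 extra domain B exon, since TNC exon 16 has several rows. An FDR of 0.01 and the recomputed FDR left the counts within 1.5 times of those reported, and recomputing moved 0 events across the threshold in either table. The median over the rows of TNC exon 16 in RS2 was 0.025. Its RS2 rows were all above 0. The called FN1 exon has 1 row in each table, so a choice of row could not change its values. The uncalled AD1 exon of TNC in RS2 was -0.154 in its reported row, -0.010 at the median of its rows and 0.001 in the row nearest 0. With 1 library per group no library could be left out, read depth was not used, and differences between the conditions have no replicate error.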
